A study of Drosophila melanogaster with 6 samples.

Results

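UDP-glycosyltransferases are enzymes of the endoplasmic reticulum that join a sugar, taken from a UDP-sugar, to small fat-soluble molecules. The product dissolves in water and can be carried out of the cell, so the family is a conjugating arm of detoxification, beside the cytochromes P450 that oxidise such molecules and the glutathione transferases that conjugate others. In insects these enzymes act on plant toxins, insecticides and the animal's own hormones and pigments, and many are active in midgut, fat body and Malpighian tubules, the insect kidney. Members were all genes whose probe set carried 1 gene symbol beginning with Ugt and a digit. That rule uses no measured value, but the family was chosen with earlier results of these data known. It found 35 genes of the 11982 with such a probe set, each with 1 probe set, and these are all 35 genes so named in RefSeq (assembly Release 6 plus ISO1 MT).

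The arrays measured RNA of whole male larvae of the last instar of Drosophila melanogaster strain w1118, a white-eyed laboratory strain, and asked how the mother's diet bears on the offspring. Mothers in the control group ate food with 0.15 M sucrose and mothers in the high-sucrose group food with 1 M sucrose for 7 days as virgins, and then were mated to males on control food. In both groups the eggs were laid on control food and the larvae grew on it, at 25 C. Each group had 3 arrays, numbered as biological replicates; how many larvae were pooled for each is not stated, and labels disagree on whether the larvae were in the middle of the instar or wandering. The sample titles also call the larvae themselves reared on control or high-sugar food; the characteristics and the design text give the diets to the mothers, as is followed here, and every difference below rests on that reading. The authors deposited a linear intensity for each probe set and array, which can be compared across arrays but not across probe sets. Differences below are high sucrose minus control on log2(intensity + 16), which understates the change of dim probe sets. A gene is said to have risen or fallen where limma's p, adjusted by Benjamini-Hochberg over 18769 probe sets, was under 0.05, and means stand with their SD (n = 3 per group).

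Array medians lay between 51.5 and 55.7 and upper quartiles between 218.2 and 224.2 for controls and between 212.8 and 216.3 for the high-sucrose group, with no overlap. Of 12 markers of the midgut 7 fell, beside 0.57% of all probe sets, 0 rose and 5 did not pass, with a summed intensity of 41170 to 42020 in controls against 30690 to 32310 in the high-sucrose group. Without control 2, 2 of the midgut markers fell, and 6 or 7 with any other array left out; 0 fell where the variance was fitted without a trend with intensity. Of 10 markers listed for fat body and 12 for Malpighian tubules, 6 and 10 were measured, and 0 of these passed. Their log2 differences lay below 0 in 5 and 8. In 3 and 5 all high-sucrose arrays lay below all control arrays (50% each, against 12.6% of all probe sets). Most of these markers were bright: 6 of 6 and 8 of 10 had a mean of 100 or over. At that level 20.4% of all probe sets were lower without overlap. Summed intensities were 40480 to 42120 against 39080 to 39480 and 3931 to 4156 against 3785 to 3944. Of 10 testis markers 1 rose, beside 0.0533% of all probe sets, and 0 fell (3762 to 4254 against 4634 to 4822). In any fit with an array left out 0 of the testis markers rose. Of 7 salivary gland markers 0 passed (45030 to 51950 against 49750 to 53390). The 4 measured markers of chemosensory organs, where some family members are known to act, were dim, with sums of 71.3 to 84.7 and 65.6 to 87.1, and 0 of them passed. The part of these marker differences in the results below was not tested. In RNA of whole larvae, fewer cells of a type and less RNA of the marker genes per cell cannot be told apart.

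Of the 35 genes 1 fell, 0 rose and 34 did not pass. The gene that fell was Ugt35C1, long called Ugt86Dd, a gene at which natural variation has been tied to the resistance of larvae to nicotine. Over all probe sets, 0.57% were lower and 0.0533% higher by the same rule, and 2.86% of the family was lower. At an unadjusted p under 0.05, 5 members were lower and 0 higher, against 8.8% and 3.59% of all probe sets. The log2 differences of the 35 ran from -0.44 to 0.17 with a median of -0.14, beside a median of -0.034 over all probe sets. Below 0 lay 30 of the 35 (85.7%) and 58.9% of all probe sets.

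**Figure D1:**
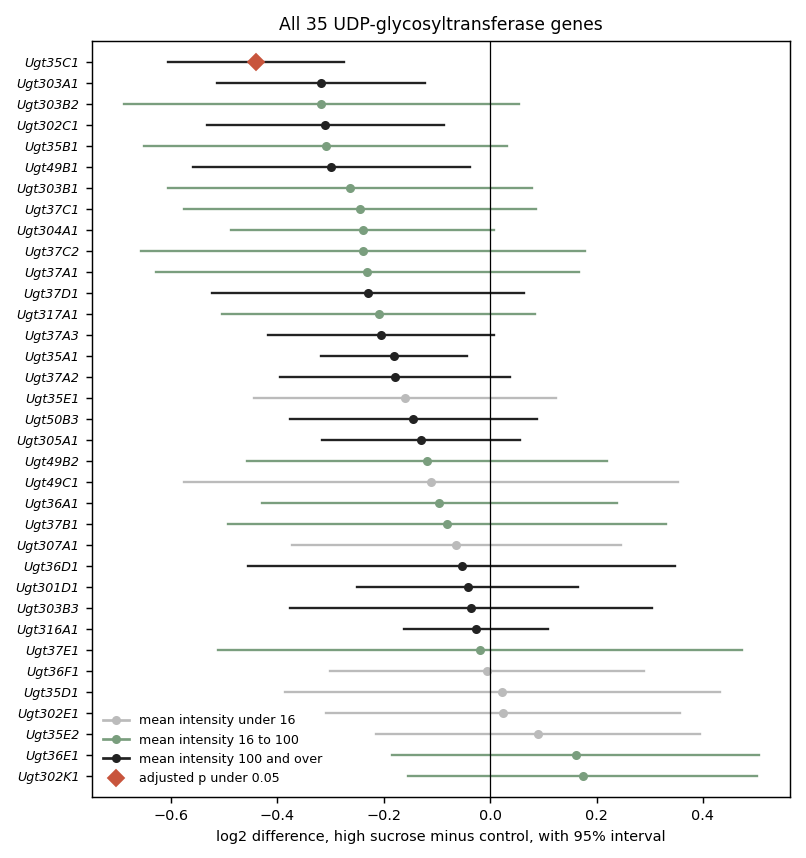
The log2 difference (high sucrose minus control, on log2(intensity + 16)) of each of the 35 genes, ordered by size, with limma's 95% interval and coloured by mean intensity over the 6 arrays. The interval of Ugt35C1 runs from -0.61 to -0.28, and 30 of the 35 points lie left of 0.

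Ugt35C1 had an intensity of 1239, 1169 and 1348 in the control arrays and of 899, 999.2 and 858.1 in the high-sucrose arrays. The lowest control array thus lay above the highest high-sucrose array. The mean fell from 1252 ± 90.3 to 918.8 ± 72.6, that is, to 73.4% of control, a log2 difference of -0.44 ± 0.073 (SE; limma adjusted p = 0.0357). Its p was the 95th smallest of all 18769 probe sets. The call was lost under quantile scaling (adjusted p = 0.0766), median centring (0.0547) and without a trend of the variance with intensity (0.238), while the log2 difference stayed between -0.50 and -0.37 in all 17 refits. It was also lost when control 1, 2 or 3 or high-sucrose 1 or 3 was left out (adjusted p from 0.0899 to 0.136), but not without high-sucrose 2 (0.0218).

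Ugt35C1 stands at an end of the largest run of neighbouring family genes, 10 members on chromosome arm 3R with at most 2 other protein-coding genes between neighbours. The run goes Ugt35C1, Ugt302K1, Ugt302E1, Ugt302C1, Ugt35E1, Ugt35E2, Ugt35B1, Ugt35A1, Ugt304A1 and Ugt303A1, all formerly named as the letters a to j of Ugt86D. Its log2 differences ran from -0.44 to 0.17 with a median of -0.21, and 7 of the 10 lay below 0. In 4 of the 35 genes all high-sucrose arrays lay below all control arrays (11.4%, against 12.6% of all probe sets), and these 4 belong to this run: Ugt35C1, Ugt302C1, Ugt35A1 and Ugt303A1. The share over the family is thus close to that over the array, and 0 members were higher without overlap, against 5.96% of all probe sets.

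Ugt303A1 (Ugt86Dh), at the other end of the run, had intensities of 156.8, 165.2 and 154.6 in control and 112.3, 133.5 and 127.8 in high-sucrose arrays. The groups did not overlap, and the means of 158.8 ± 5.58 and 124.5 ± 11.0 gave a log2 difference of -0.32 ± 0.086 that did not pass (adjusted p = 0.173). Ugt302C1 (Ugt86Da) was at 465.7, 469.1 and 574.7 in control and at 376.9, 451.2 and 379 in high-sucrose arrays. Control 3 stood above the rest and high-sucrose 2 came close to the lower control arrays, and the difference of -0.31 ± 0.099 did not pass (adjusted p = 0.243). Ugt35A1 (Ugt35a) read 859.5, 861.3 and 943.6 in control and 778.7, 821.5 and 745.3 in high-sucrose arrays. That is a small separation, from 888.1 ± 48.1 to 781.8 ± 38.2, or 88% of control, with a log2 difference of -0.18 ± 0.061 (adjusted p = 0.263).

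In the same run, Ugt35B1 (Ugt35b), a gene described from the adult antenna, was at 43.3, 48.2 and 51 in control and at 30.3, 47.4 and 29.7 in high-sucrose arrays. High-sucrose 2 lay among the control arrays, and the difference of -0.31 ± 0.15 did not pass (adjusted p = 0.449). Ugt304A1 (Ugt86Dj) was at 83.2, 108.7 and 104 in control and at 83.5, 78.5 and 79.96 in high-sucrose arrays. Control 1 fell within the high-sucrose range (-0.24 ± 0.11; adjusted p = 0.417). Opposite in sign to most of the run were Ugt302K1, with means of 43.4 ± 6.47 and 51.3 ± 10.4 (0.17 ± 0.15; adjusted p = 0.671), and the dim Ugt302E1 and Ugt35E2. Ugt302E1 was at 6.11 ± 3.38 and 6.39 ± 2.10, and Ugt35E2 at 3.72 ± 2.55 and 4.89 ± 1.14, with no array of either reaching 16. The tenth gene, Ugt35E1, was near that level too, at 16.3 ± 2.42 and 12.9 ± 1.53.

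**Figure D2:**
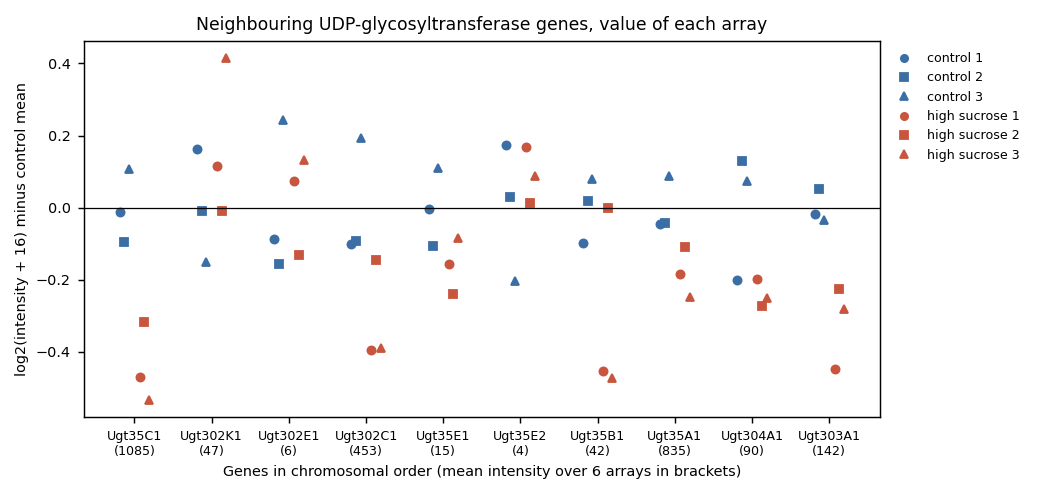
The 10 neighbouring genes in their order on the chromosome, with each array's log2(intensity + 16) minus the control mean of the gene; symbols mark replicates and brackets hold the mean intensity. High-sucrose points lie below all control points at Ugt35C1, Ugt302C1, Ugt35A1 and Ugt303A1, and the points mix at Ugt302K1, Ugt302E1 and Ugt35E2.

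Other genes of this stretch did not share 1 direction. Between the family genes, mAcon2, a relative of mitochondrial aconitase, was at 26.5 ± 1.46 and 30.6 ± 10.4 (adjusted p = 0.832). CG4757 was at 245 ± 140 and 455.4 ± 634 (adjusted p = 1), with a spread larger than its mean in the high-sucrose group. The gene next after Ugt303A1, CG18577, fell from 144 ± 11.4 to 90.1 ± 1.01 (-0.59 ± 0.087; adjusted p = 0.0244); it was named after its values were seen. Its call was lost without control 2 or 3 or high-sucrose 1 or 3 (adjusted p from 0.0832 to 0.115) and without the variance trend (0.133). The gene before Ugt35C1, SdhCL (-0.11; adjusted p = 0.723), and the gene after CG18577, cu (-0.29; adjusted p = 0.344), did not pass.

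The other runs are shorter: 5 runs of 2 or 3 neighbours, with 0 other protein-coding genes between them, hold 13 members, and 12 members stand alone. Ugt37A2 and Ugt37A3 are neighbours on 3R. Ugt37A2 was at 574.6, 558.7 and 629.1 in control and at 515.2, 594.5 and 449.6 in high-sucrose arrays (-0.18 ± 0.096; adjusted p = 0.488). Ugt37A3 was at 188.9, 188.7 and 209.7 in control and at 159.5, 191.3 and 154 in high-sucrose arrays (-0.20 ± 0.094; adjusted p = 0.42). In both genes high-sucrose 2 lay within the control range and the other high-sucrose arrays below it. The run of Ugt303B3, Ugt303B1 and Ugt303B2, also on 3R, had log2 differences of -0.036, -0.26 and -0.32. Ugt303B2 was at 34.1, 43.5 and 44.7 in control and at 22.4, 27.2 and 40.3 in high-sucrose arrays, where high-sucrose 3 fell into the control range (adjusted p = 0.474). Ugt303B3 had its highest value of the 6 arrays, 172.7, in high-sucrose 3, while high-sucrose 1 and 2 were at 110.1 each.

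On 2R, Ugt49B1 was at 154.4, 153.2 and 171.7 in control and at 120, 153.4 and 110.3 in high-sucrose arrays. High-sucrose 2 stood just above the lowest control array, and the difference of -0.30 ± 0.12 did not pass (adjusted p = 0.33). Its neighbour Ugt49C1 was dim, at 13.2 ± 5.91 and 11.1 ± 6.17. On 2L, the run of Ugt37C2, Ugt37E1 and Ugt37D1 had differences of -0.24, -0.020 and -0.23. Ugt37D1 was at 580.5, 561.6 and 770.7 in control and at 495.4, 631 and 492.8 in high-sucrose arrays. Control 3 and high-sucrose 2 were each high in their group, and the difference did not pass (adjusted p = 0.512). In the run of Ugt36F1, Ugt36D1 and Ugt36E1 the differences were near 0 or above it: -0.006, -0.054 and 0.16. Ugt36E1 was at 33.8, 21.9 and 19.2 in control and at 30.6, 28 and 29.3 in high-sucrose arrays (adjusted p = 0.712), so that the high-sucrose arrays lay inside the control range.

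Of the 12 members that stand alone 11 lay below 0, with a median of -0.11, and 0 passed. Among them Ugt316A1 varied least, at 370 ± 16.4 and 362.7 ± 2.90, with an interval of the difference from -0.16 to 0.11. Ugt301D1 was at 449.1 ± 45.2 and 435.8 ± 44.2 (-0.25 to 0.17). Ugt305A1 was at 167.9 ± 8.53 and 152.2 ± 11.2 (-0.32 to 0.056), and Ugt50B3 at 119.7 ± 11.3 and 106.8 ± 10.5 (-0.38 to 0.088). The intervals include 0, and those of Ugt50B3 and Ugt305A1 also reach values about as low as the estimates of Ugt303A1 and Ugt302C1. Ugt36A1, known as Dot from reporter lines that mark larval blood-forming and heart-associated cells, was at 67.1 ± 2.68 and 62.9 ± 16.8 (adjusted p = 0.837). Ugt317A1 (Ugt58Fa) was at 70.96 ± 7.71 and 59.5 ± 10.7 and Ugt37B1 at 60.1 ± 16.1 and 55.6 ± 12.8. The others, Ugt37A1, Ugt37C1, Ugt49B2, Ugt307A1 and Ugt35D1, had means under 30 in each group and at least 1 array under 16.

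Grouped by the family number in the symbol, which reflects sequence similarity, all 8 genes of the Ugt37 family lay below 0 (-0.24 to -0.020; median -0.22), and 0 of them passed. So did all 4 of Ugt303 (median -0.29) and all 3 of Ugt49 (median -0.12), without a call. The 6 genes of Ugt35 ran from -0.44 for Ugt35C1 to 0.090 for Ugt35E2. Of the 3 of Ugt302, Ugt302C1 lay below 0 and the other two above it.

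The share of members below 0 was highest among bright probe sets. With a mean of 100 or over, 14 of 14 members lay below 0 (median -0.18), beside 64.8% of the 7366 probe sets of that level (median -0.048). Between 16 and 100, 12 of 14 did, beside 54% of probe sets of that level, and under 16, 4 of 7 (median -0.006), beside 56.5%. The 14 bright members included the 1 call, against 1.34% of probe sets of that level, and 4 without overlap (28.6%, against 20.4%). Other scalings moved some signs: 12 of the 14 lay below 0 after quantile scaling or cyclic loess and 13 after median centring, with 49.2%, 49.7% and 52.5% of all probe sets below 0 under these settings. Without high-sucrose 2, 11 of the 14 lay below 0, and without control 1, 12. Of all 35 genes 27, 26 and 29 did under the same scalings, with a family median of -0.11 under each. Members at 16 to 100 had a median SE of 0.15 against 0.095 for the bright ones, so that a difference of the size of Ugt35C1 would be measured less sharply there.

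**Figure D3:**
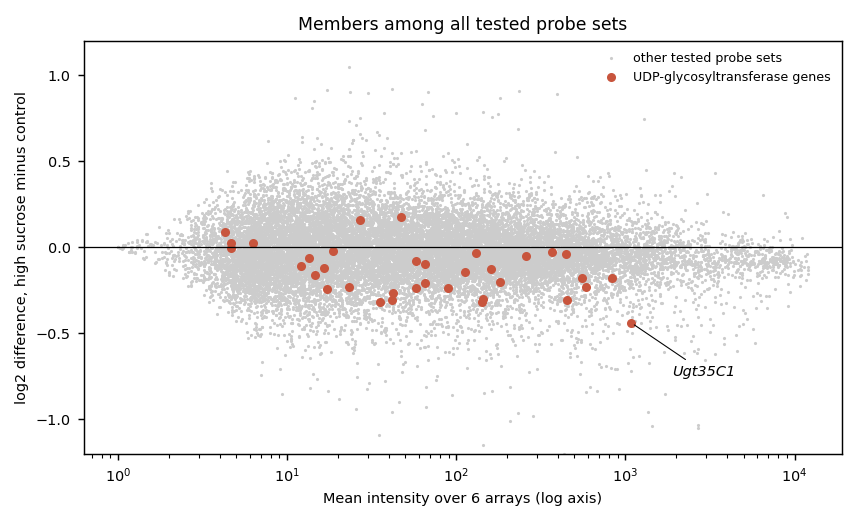
Mean intensity over 6 arrays (log axis) against the log2 difference for all tested probe sets (grey) and the 35 family genes (red). The family genes lie mostly below 0, from -0.44 to 0.17 and inside the cloud of other probe sets; 17 probe sets lie beyond the plotted range of 1.2 on each side of 0.

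The arrays of a group were not alike over the family. The summed intensity of the 35 probe sets was 6464, 6314 and 7004 in control and 5467, 5934 and 5536 in high-sucrose arrays, so that the groups did not overlap, with control 3 and high-sucrose 2 at the top of their groups. This sum is weighted to bright probe sets, of which Ugt35C1 was the brightest. The upper quartiles of all probe sets did not overlap between the groups either. Of the 14 bright members, 11 were highest in high-sucrose 2 among the high-sucrose arrays, as were 45.5% of all probe sets of that level. In control 3, 10 of the 14 were highest, as were 37.9% of probe sets. High-sucrose 2 lay within the control range in 7 of the 14 bright members, high-sucrose 1 in 4 and high-sucrose 3 in 2. The same count was not made over all probe sets of that level, so it cannot be read as a trait of the family. Without high-sucrose 2 the family median was -0.18 and 25 of 35 lay below 0, and without control 3 they were -0.11 and 27.

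**Figure D4:**
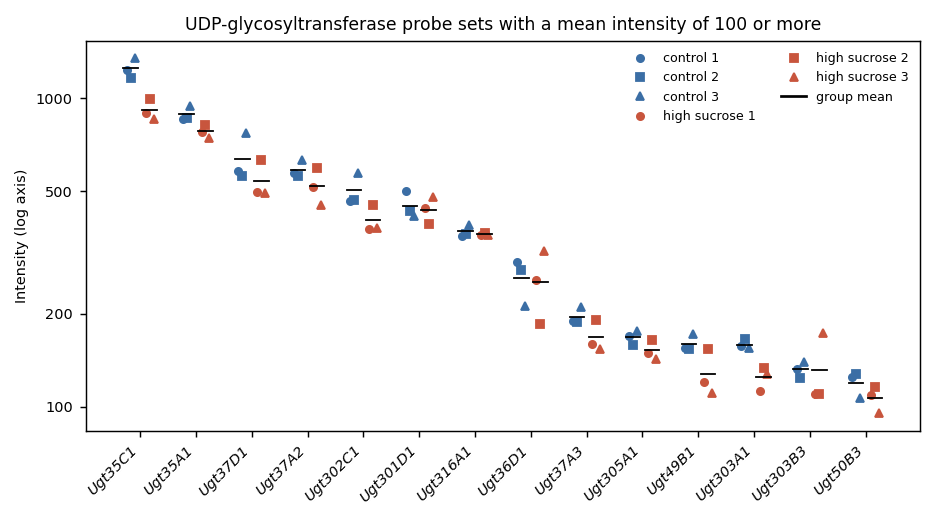
Intensity in every array (log axis) of the 14 members with a mean of 100 or over; symbols mark replicates and bars group means. Blue and red points separate at Ugt35C1, Ugt35A1, Ugt302C1 and Ugt303A1 and overlap in the other 10 genes, where the red square of high-sucrose 2 is often the top red point.

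Beside the family stood other gene families with detoxification enzymes, whose genes were taken by their symbols. Of 81 cytochromes P450 4 fell (4.94%) and 0 rose, and of 34 glutathione transferases 1 fell (2.94%) and 0 rose. Over all probe sets 0.57% fell and 0.0533% rose. Their median log2 differences were -0.15 and -0.24, against -0.14 for the UDP-glycosyltransferases, and 80.2% and 91.2% of their genes lay below 0. Without overlap on the lower side were 44.4% of the P450 genes, 44.1% of the glutathione transferase genes and 11.4% of the UDP-glycosyltransferase genes, against 12.6% of all probe sets. The families differ in brightness: 47 of 81, 28 of 34 and 14 of 35 genes had a mean of 100 or over. At that level 20.4% of all probe sets and 28.6% of the UDP-glycosyltransferase genes were lower without overlap, and 1.34% of all probe sets fell. These shares were not counted for the bright P450 and glutathione transferase genes. Median log2 differences at that level were -0.19 for P450, -0.23 for glutathione transferase and -0.18 for UDP-glycosyltransferase genes. The difference between families was not tested. The P450 genes that fell were Cyp9f2 (3607 ± 27.6 to 2693 ± 50.1; adjusted p = 0.005), Cyp9b2, Cyp304a1 and Cyp28d1, with log2 differences from -0.62 to -0.35. Cyp28d1 is, like Ugt35C1, a gene tied to nicotine resistance of larvae. The glutathione transferase was GstE11, which fell from 731.3 ± 25.4 to 573.3 ± 14.0 (-0.34 ± 0.054; adjusted p = 0.0282). These counts changed with an array left out, as did the count of lower probe sets over all (107, and 11 to 154 with an array left out). In these fits the log2 difference of Cyp9f2 stayed between -0.43 and -0.41 and that of GstE11 between -0.37 and -0.32. Of the P450 genes 0 fell without control 2, 1 without control 3, 2 without high-sucrose 3, 3 without high-sucrose 1, 4 without control 1 and 6 without high-sucrose 2. Of the glutathione transferase genes 3 fell without high-sucrose 2, 1 without control 1 and 0 without any of the others, where GstE11 had an adjusted p of 0.12 to 0.135. GstE11 and Cyp28d1 did not pass under quantile scaling (0.0687 and 0.0585) or median centring (0.126 and 0.102), and without the variance trend 0 genes of either family fell.

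**Figure D5:**
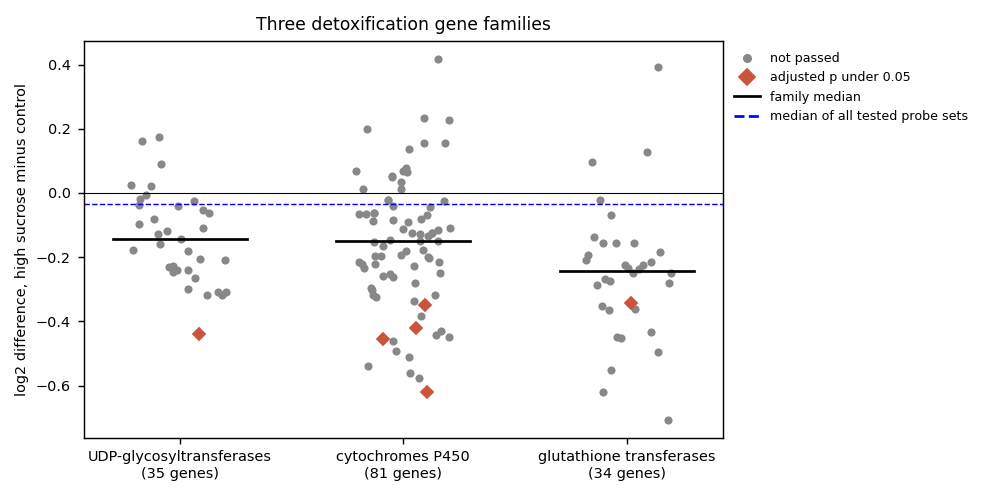
The log2 difference of each gene of the 3 families, with red diamonds for genes that passed, black bars for family medians (-0.14, -0.15 and -0.24) and a dashed line at the median of all tested probe sets (-0.034). The UDP-glycosyltransferase genes span -0.44 to 0.17, with Ugt35C1 as the red diamond.

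The supply of UDP-sugar, its other uses, the regulators of detoxification genes and the pumps that export conjugates gave 0 calls. Over all probe sets 0.57% fell and 0.0533% rose, and in lists this short 0 calls is near those shares. Of 15 genes that make or carry UDP-sugars or their precursors 11 lay below 0 (median -0.13). Those with the smallest p were meigo, which encodes a UDP-sugar transporter-like protein of the endoplasmic reticulum (512.8 ± 37.5 and 400.5 ± 12.1; adjusted p = 0.0688), and Efr, a nucleotide-sugar transporter of the same compartment (584.4 ± 77.8 and 461.1 ± 24.0; adjusted p = 0.183). Of 8 other users of UDP-sugars 4 lay below 0 (median 0.007); ttv, a heparan sulfate polymerase, was at 113.5 ± 9.86 and 97.6 ± 7.57 (adjusted p = 0.477), and Uggt, which glucosylates misfolded glycoproteins, at 639.5 ± 29.3 and 694.2 ± 47.7 (adjusted p = 0.516). Of 11 regulators 6 lay below 0 (median -0.040). Hr96, a nuclear receptor of the response to foreign compounds, was at 743 ± 58.5 and 591.5 ± 97.8 (adjusted p = 0.26), and EcR, the ecdysone receptor, at 468.4 ± 63.9 and 558.9 ± 60.3 (adjusted p = 0.393). Of 7 export pumps 6 lay below 0 (median -0.14), with MRP at 849.5 ± 87.8 and 741.5 ± 64.6 (adjusted p = 0.41) and Mdr65 at 66.96 ± 4.84 and 55.8 ± 10.2 (adjusted p = 0.535).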

How the data were processed

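RNA of whole larvae was turned into biotinylated cRNA and hybridised to Affymetrix arrays, per the labels' protocols. The intensities deposited by the authors are linear, 1 for each of 18952 probe sets on 6 arrays; how these were summarised, background-corrected and scaled is not stated, and no further scaling was applied. Control probe sets (183) were left out. Log2(intensity + 16) was fitted in R 4.3.3 with limma 3.58.1 (2 groups, empirical Bayes variances with an intensity trend), with Benjamini-Hochberg adjustment over 18769 probe sets; the method was tested on simulated data. The number of arrays limits the precision. Genes were named from the platform probe table; RefSeq gave gene order and older names only. Probe sequences were not used here, so RNA of similar family genes may add to a probe set. Members with values in every array were those past the threshold, filled to 10 by smallest p; others follow as the brightest, the largest differences or those against their run's direction. For partner lists, genes that passed or the 2 with the smallest p are named. After values were seen, Cyp1 and Cyp40 (cyclophilins), Indy and AGBE were taken out of lists whose function they do not share. Members and lists were chosen with earlier results of these data known. Other scalings, pseudocounts, filters, variance models, a replicate block and single arrays left out were tried.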

Additional observations from a re-analysis of the deposited data

How the results depend on the processing

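The number of family genes that rose was 0 under all 18 alternatives, and the median log2 difference stayed below 0, from -0.19 to -0.10. The number that fell, 1, was 0 under quantile scaling, median centring, no variance trend and the replicate block, and 0 to 1 with an array left out, where Ugt35C1 is the gene concerned. With the replicate block the log2 difference of Ugt35C1 was unchanged at -0.44 with a limma adjusted p of 0.112, and 59 probe sets were lower and 4 higher. The deviations of same-numbered arrays from their group means had correlations of -0.072, 0.025 and -0.014, against -0.21 to 0.24 for differently numbered arrays. With 3 arrays per group these values cannot decide whether the numbers pair the arrays. With the block CG18577, GstE11 and Cyp28d1 did not pass either (adjusted p = 0.0742, 0.0981 and 0.0731). Over all probe sets 107 were lower and 10 higher, against 3 and 1 without a variance trend, 76 and 17 with quantile scaling, 72 and 13 with arrays centred on the median, 85 and 17 with cyclic loess, 176 and 19 with robust variances, 153 and 13 for the upper 50%, 228 and 36 at a threshold of 0.10, and 11 to 154 lower and 2 to 9 higher with an array left out. The other 9 members followed in the alternatives kept their sign and did not pass in any. Of the family, 19 genes lay in the upper 50% by mean, all 19 below 0. Among the lists beside the family, 3 to 8 P450 genes and 0 or 1 glutathione transferase genes fell when all arrays and an adjusted p of 0.05 were kept, but 0 of each without the variance trend; 1 gene that makes or carries UDP-sugars fell with robust variances or array weights. Each gene has 1 probe set, so averaging probe sets changes nothing. Dim probe sets limit what can be seen: 7 members had a mean under 16.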
